A study of Mus musculus with 14 samples.

Results

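The 39 genes described here encode proteins that copy DNA in S phase, and they were followed through 7 blood cell populations of the mouse. They were chosen by name, as a list of replication genes, with earlier results of these data known. They are 39 of the 49583 genes in the deposited table. The series holds RNA sequencing of 14 samples, 2 for each of 7 groups. All came from wild type C57BL/6 mice and were sorted to a stated purity above 98%. Ter cells were sorted as positive for Ter-119, a surface protein of red cell precursors, and negative for CD45 and lineage markers. They came from the spleen of tumour-bearing mice and from embryonic liver at E14.5. Spleen cells of tumour-bearing mice that were CD45+ and Ter-119- served as the control. Bone marrow of wild type mice gave the other 4 groups, labelled hematopoietic stem cells (HSC, c-Kit+ Sca-1+ Lin-), common lymphoid progenitors (CLP, gated as HSC are and also IL-7R+), megakaryocyte-erythroid progenitors (MEP, labelled c-Kit+ CD34+ FcγRlo) and common myeloid progenitors (CMP, labelled c-Kit+ CD34- FcγRlo), both without lineage markers, IL-7R and Sca-1. The labels give neither the tumour nor the age of the adult mice, and the control was sorted only by CD45 and Ter-119, so it holds many kinds of spleen cell.

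Each value is in FPKM (a fragment count divided by gene length and by the depth of the library). For most genes whose libraries were recovered (below), the length was that of all annotated exons together. That length can exceed the length of the transcript, so comparisons of level between genes are only approximate. The table holds the authors' mean of each group. For 4 groups (both Ter populations, MEP and CMP) the pair of libraries behind each mean was recovered from the decimals of the deposited values, and is written here as A, the deeper library, and B. Depth ran from 13413531 to 28537889 fragments, and all 39 genes were recovered in all 8 libraries. The control, HSC and CLP columns are in another number format and stay as the authors' means with no error and unknown depth. Whether replicate samples are from different mice is not said, and p-values measure only the spread between these samples, which may be technical.

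Some libraries go against their labels. The libraries labelled MEP were near 0 for erythroid genes: Klf1, the erythroid Kruppel-like factor, had a mean of 1.26 FPKM, against 317 in liver Ter. Their 9 neutrophil markers summed to 175705 FPKM, and Cd34, a marker the MEP gate selects for by its label, stood at 0.0694 FPKM. In CMP, whose gate as labelled selects against CD34, Cd34 stood at 29.7 FPKM. The Cd34 levels go against the gates stated in the labels, not against the names MEP and CMP. Whether the stated gates are swapped is unknown. The 9 erythroid markers summed to 123640 FPKM in liver Ter and 38358 in spleen Ter, but to 11.1 and 20.9 in the MEP and CMP columns. These sums include the globin genes Hbb-bs and Hba-a1, and all globin genes held 13.7% of FPKM in spleen Ter. Only 4 of the 9 markers were tested (limma, thresholds below). In spleen Ter 0 of these 4 passed as higher than in CMP, with a median log2 fold change of 0.08. Against MEP 1 passed as higher, and against liver Ter all 4 passed as lower, with a median of -5.43. The spleen Ter libraries also held markers of other cells. Their neutrophil markers summed to 24628 FPKM, the 6 macrophage markers to 541, the 5 B cell markers to 1131 and the 5 T cell markers to 196, and their libraries A and B differed by at least 2-fold in 22.1% of tested genes, while 0.578%, 0.948% and 1.87% did so in the liver Ter, MEP and CMP pairs. The part of these other cell types in the results below was not tested.

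DNA replication begins with licensing. The origin recognition complex, Cdc6 and Cdt1 load the ring-shaped MCM helicase onto DNA before S phase. The helicase is then switched on by Cdc45 and the GINS complex, DNA polymerases with primase make the new strands, and the sliding clamp PCNA with its loader RFC holds the polymerases in place. Most of these genes are transcribed under E2F factors in dividing cells, and red cell precursors divide several times before they leave the cycle and lose their nucleus. In bulk samples, fewer cells in S phase and less of a transcript per cell cannot be told apart.

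Because E2F factors are known to act on these genes, the promoters were searched for the letters TTTCCCGC and TTTGGCGC, on both strands, from 250 bases before to 50 bases after the start site (RefSeq, GRCm38.p6). Of the 39 genes 31 had an entry. The letters were found in 10 of them (32.3%), namely Cdc6, Cdt1, Gins3, Mcm3, Mcm5, Mcm6, Mcm7, Pola1, Pold1 and Rfc3, and in 486 of 27025 genes with an entry (1.8%). The sequences below are the 170 bases that end just before the start site in the 6 genes with a match there. Each runs 5′ to 3′ on the gene's own strand, with the matched letters, or their reverse complement, in capitals. Mcm6 holds a pair of matches, and the other 5 hold a single match each. The start sites are those of RefSeq and can differ from the gene ends in the GENCODE M21 annotation. By that annotation the Cdc6 and Mcm7 windows lie inside the gene, and the Gins3 window lies partly inside it.
Mcm6 (chr1:128359706-128359875, minus strand): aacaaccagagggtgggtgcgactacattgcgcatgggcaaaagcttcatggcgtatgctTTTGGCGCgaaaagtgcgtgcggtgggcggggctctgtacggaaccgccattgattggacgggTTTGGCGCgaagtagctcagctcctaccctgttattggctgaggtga
Mcm7 (chr5:138171884-138172053, minus strand): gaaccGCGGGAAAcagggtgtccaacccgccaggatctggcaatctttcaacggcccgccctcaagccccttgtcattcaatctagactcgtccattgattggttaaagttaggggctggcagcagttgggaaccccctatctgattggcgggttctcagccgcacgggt
Mcm5 (chr8:75109339-75109508, plus strand): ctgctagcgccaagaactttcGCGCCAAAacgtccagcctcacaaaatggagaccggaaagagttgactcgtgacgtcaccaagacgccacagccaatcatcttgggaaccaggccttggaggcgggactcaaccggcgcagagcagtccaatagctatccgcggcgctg
Gins3 (chr8:95633389-95633558, plus strand): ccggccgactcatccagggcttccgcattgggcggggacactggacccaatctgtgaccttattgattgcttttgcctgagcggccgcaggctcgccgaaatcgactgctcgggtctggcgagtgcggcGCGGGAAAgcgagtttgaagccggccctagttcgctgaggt
Cdc6 (chr11:98907981-98908150, plus strand): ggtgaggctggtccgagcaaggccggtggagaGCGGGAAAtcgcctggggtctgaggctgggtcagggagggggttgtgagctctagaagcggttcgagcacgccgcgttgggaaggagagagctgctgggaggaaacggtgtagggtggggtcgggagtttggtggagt
Pola1 (chrX:93632156-93632325, minus strand): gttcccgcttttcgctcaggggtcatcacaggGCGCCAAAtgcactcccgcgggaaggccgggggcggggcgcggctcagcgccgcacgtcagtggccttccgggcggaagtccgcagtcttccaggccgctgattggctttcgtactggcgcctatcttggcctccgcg
The letters CCAAT, the core of the CCAAT box, were in 18 of the 31 promoters (58.1%) and in 41.1% of all genes with an entry. A match describes the letters only and says nothing of binding.

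Replication genes stood lowest in spleen Ter cells among the 4 recovered populations and highest in CMP. Their median level was 5.40 and 3.49 FPKM in the spleen Ter pair, 18.0 and 17.9 in liver Ter, against 11.6 and 12.3 in the MEP and 21.3 and 26.2 in the CMP libraries. Only 11 and 12 of the 39 reached 10 FPKM in the spleen Ter libraries, against 26 in each liver Ter library and 32 and 31 in CMP. In 30 of the 39 genes both spleen Ter libraries lay below the other 6 libraries, which was so for 11.3% of the 12974 tested genes. For 25 of the 39 both CMP libraries lay above all others (32.2% of tested genes), and for 10 of the 39 both liver Ter libraries did (9.47% of tested genes). The place of liver Ter against CMP depends on the scaling: with median-of-ratios scaling liver Ter was the highest of the 4 for 36 genes and CMP for 3, while spleen Ter stayed the lowest for 36.

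**Figure D1:**
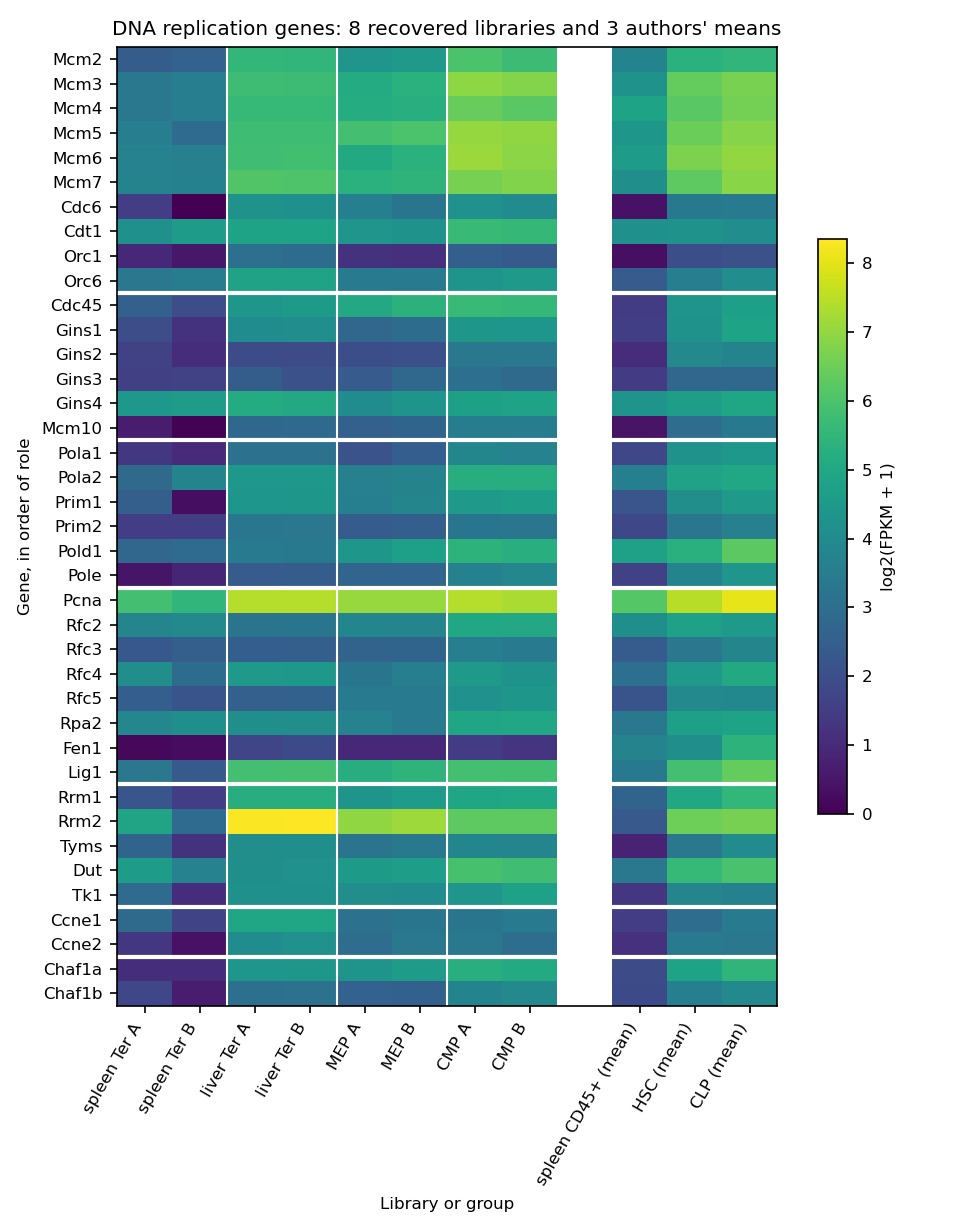
Level of each of the 39 replication genes, as log2(FPKM + 1) in colour, in the 8 recovered libraries (left) and in the authors' means of the control, HSC and CLP (right, made in another number format); genes are in order of role, with white lines between roles. The spleen Ter libraries and the CD45+ spleen control are darker than the others for most genes, and Rrm2 in the liver Ter libraries is the brightest.

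Among the licensing genes, the helicase subunits Mcm2 to Mcm7 were lowest in spleen Ter and highest in CMP. Mcm5 (ENSMUSG00000005410, mm10 chromosome 8, 75109569 to 75128439) was 10.99 and 6.65 FPKM in spleen Ter libraries A and B, 53.7 and 52.8 in liver Ter, against 57.3 and 62.8 in the MEP and 131 and 125 in the CMP libraries. Mcm6 (ENSMUSG00000026355, chromosome 1, 128331590 to 128359664) was 12.0 and 11.4 in spleen Ter, 54.9 and 56.2 in liver Ter, against 32.9 and 39.4 in the MEP and 136 and 118 in the CMP libraries. For all 6 subunits neither the spleen Ter pair nor the CMP pair overlapped with the rest. Mcm2, the least abundant of the 6 in CMP, was 4.52 and 5.16 in spleen Ter, 44.9 and 43.9 in liver Ter, against 19.5 and 22.1 in the MEP and 62.2 and 51.8 in the CMP libraries. Mcm3, Mcm4 and Mcm7 ranged from 9.09 to 12.4 in spleen Ter, from 47.3 to 66.5 in liver Ter, from 34.6 to 42.7 in MEP and from 72.9 to 122 in CMP. Liver Ter lay above MEP for 5 subunits and below it for Mcm5.

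The loading factors did not share that order. Cdc6 (ENSMUSG00000017499, chromosome 11, 98907801 to 98923940), the ATPase that brings the helicase to the origin, was 1.87 FPKM in spleen Ter library A and 0 in library B, where no fragment was counted and up to 3 are allowed by counting error. It was 18.0 and 17.2 in liver Ter, against 11.2 and 8.47 in the MEP and 17.6 and 15.2 in the CMP libraries, so that liver Ter and CMP overlapped. Cdt1 (ENSMUSG00000006585, chromosome 8, 122568015 to 122573554), the partner of Cdc6, was 17.3 and 23.2 in spleen Ter, 19.4 and 18.3 in MEP, 27.9 and 28.1 in liver Ter, and 49.4 and 46.1 in CMP. Its level in spleen Ter overlapped that in MEP. Orc1, the largest subunit of the origin recognition complex, was 0.951 and 0.455 in spleen Ter, 1.33 and 1.23 in MEP, 4.65 and 4.18 in CMP, and 7.56 and 6.79 in liver Ter. Orc6, another subunit, was 9.01 and 10.3 in spleen Ter, 10.1 and 10.2 in MEP, 19.0 and 21.2 in CMP, and 26.9 in both liver Ter libraries. Both Orc genes were thus highest in liver Ter.

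Of the genes that switch the helicase on, Cdc45 (ENSMUSG00000000028, chromosome 16, 18780447 to 18811987) was 4.85 and 2.93 FPKM in spleen Ter, 20.6 and 22.4 in liver Ter, against 31.7 and 40.5 in the MEP and 48.7 and 46.9 in the CMP libraries. The populations did not overlap. Mcm10, which helps the active helicase leave the origin, was 0.551 and 0.0358 in spleen Ter, the latter from 4 fragments, and 4.96 to 10.7 in the other 6 libraries. Within the GINS complex the subunits differed. Gins1 was 2.93 and 1.32 in spleen Ter against 15.7 and 16.2 in liver Ter, while Gins4 was 21.1 and 23.1 in spleen Ter, above the 15.8 and 19.0 of MEP. Gins4 was the only helicase activation gene over 10 FPKM in spleen Ter. Gins3 was 2.03 and 2.08 in spleen Ter and 3.24 to 7.36 elsewhere, and Gins2 was 2.04 and 1.12 in spleen Ter, 2.87 and 2.81 in the liver, and 9.27 and 9.21 in CMP. Exons of another gene, Gse1, cover 67.3% of the exon bases of Gins2, so its level is uncertain.

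Primase and polymerase genes were low in spleen Ter, and most of them had their highest level in CMP. Prim1 (ENSMUSG00000025395, chromosome 10, 128015168 to 128030037), the catalytic primase subunit, was 4.72 FPKM in spleen Ter A but 0.231 in spleen Ter B, 20.1 and 20.6 in liver Ter, against 11.3 and 13.1 in the MEP and 21.2 and 24.0 in the CMP libraries. Prim2, its partner, was 1.85 and 1.91 in spleen Ter and 4.37 to 8.92 elsewhere. For Pola1, the catalytic subunit of polymerase alpha, spleen Ter was at 1.53 and 0.983, liver Ter at 7.77 and 7.69, MEP at 3.37 and 4.71, and CMP at 13.2 and 12.0. Its partner Pola2 was 6.38 and 12.6 in spleen Ter, a range that holds the 11.6 and 12.3 of MEP. The polymerase delta subunit Pold1 (ENSMUSG00000038644, chromosome 7, 44532746 to 44548849) was 5.72 and 6.57 in spleen Ter, 9.67 and 9.48 in liver Ter, against 20.5 and 25.2 in the MEP and 41.5 and 37.1 in the CMP libraries. Pole, which makes the leading strand, was 0.397 and 0.813 in spleen Ter, 4.27 and 4.501 in liver Ter, against 5.55 and 5.58 in the MEP and 11.7 and 13.6 in the CMP libraries. For both genes liver Ter, too, lay below MEP and CMP.

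Pcna (ENSMUSG00000027342, chromosome 2, 132249162 to 132253314), the sliding clamp, was the most abundant of the 39 in spleen Ter and in CMP. It was 56.5 and 43.9 FPKM in spleen Ter, 170.4 and 170.9 in liver Ter, against 133 and 133 in the MEP and 171 and 154 in the CMP libraries. Liver Ter and CMP overlapped. The clamp loader genes differed less between spleen Ter and liver Ter. Rfc2 was 12.9 and 14.2 in spleen Ter, 8.37 and 8.40 in liver Ter, against 13.2 and 13.1 in the MEP and 30.9 and 32.3 in the CMP libraries, which made liver Ter the lowest on FPKM as deposited. With median-of-ratios scaling or quantile normalization liver Ter was the lowest for 0 of the 39 genes. Rfc3 was 3.96 and 4.78 in spleen Ter, 4.67 and 4.80 in the liver, and 5.26 and 5.48 in MEP, so spleen and liver Ter overlapped. Rfc4 was 16.5 and 6.72 in spleen Ter, which spans the 8.39 and 10.8 of MEP, and Rfc5 was 4.68 and 3.49 in spleen Ter and 4.89 and 5.04 in liver Ter. CMP had the highest level of Rfc2, Rfc3 and Rfc5. Rpa2, which coats single-stranded DNA, was 13.6 and 17.0 in spleen Ter and 16.8 and 16.4 in liver Ter, again overlapping.

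Lig1 (ENSMUSG00000056394, chromosome 7, 13277283 to 13311433), the ligase that joins lagging strand fragments, was 8.98 and 4.14 FPKM in spleen Ter, 57.5 and 58.2 in liver Ter, against 36.2 and 41.9 in the MEP and 56.9 and 56.1 in the CMP libraries. Fen1, the flap nuclease of the same step, was 0.137 and 0.199 in spleen Ter, from 5 and 7 fragments, and 0.889 to 2.66 in the other 6 libraries. The authors' means for Fen1 were 12.4, 17.1 and 41.6 FPKM for control, HSC and CLP. Exons of Tmem258 and Gm10143 cover 84.2% of its exon bases, and the number formats of the columns differ, so its level is uncertain.

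Genes of nucleotide supply included the highest level of the 39 in any recovered library. Rrm2 (ENSMUSG00000020649, chromosome 12, 24708241 to 24714146), the subunit of ribonucleotide reductase whose level follows S phase, was 28.3 and 6.65 FPKM in spleen Ter, 319 and 327 in liver Ter, against 123 and 141 in the MEP and 76.2 and 77.1 in the CMP libraries. It was the most abundant of the 39 in liver Ter, and the populations did not overlap. Its partner Rrm1 was 3.72 and 1.84 in spleen Ter, 35.8 in both liver Ter libraries, 18.9 and 23.6 in MEP, and 29.1 and 30.3 in CMP. Tyms, which makes thymidylate, was 5.40 and 1.33 in spleen Ter, 16.3 and 16.8 in liver Ter, against 8.36 and 9.50 in the MEP and 13.1 and 13.0 in the CMP libraries. Tk1, the salvage thymidine kinase, was 6.56 and 1.12 in spleen Ter and 15.6 to 26.2 elsewhere. All 4 were lowest in spleen Ter. Dut (ENSMUSG00000027203, chromosome 2, 125247190 to 125258608), which removes dUTP, was 22.8 and 12.0 in spleen Ter, 16.9 and 17.8 in liver Ter, against 22.6 and 24.2 in the MEP and 59.2 and 54.3 in the CMP libraries, and the spleen Ter range held the liver values.

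Cyclin E drives entry into S phase with its kinase. Ccne1 (ENSMUSG00000002068, chromosome 7, 38097984 to 38107534) was 6.37 and 2.25 FPKM in spleen Ter, 7.58 and 8.42 in MEP, 8.39 and 9.63 in CMP, and 29.4 and 29.6 in liver Ter. Ccne2 was 1.53 and 0.334 in spleen Ter, 15.8 and 17.9 in liver Ter, against 6.95 and 9.18 in the MEP and 9.11 and 7.08 in the CMP libraries. Both were highest in liver Ter, and MEP and CMP overlapped. The chromatin assembly factor subunit Chaf1a, which places histones behind the fork, was 1.12 FPKM in both spleen Ter libraries, 19.999 and 20.3 in liver Ter, against 19.1 and 23.4 in the MEP and 37.1 and 33.9 in the CMP libraries. In the GENCODE M21 annotation exons of Ubxn6 cover 52.5% of its 8854 exon bases. The length recovered from the deposited values was 3308 bases, so that share may not hold for them, and its level is uncertain. Chaf1b was 2.45 and 0.564 in spleen Ter, 7.49 and 7.66 in liver Ter, against 5.21 and 4.999 in the MEP and 12.6 and 14.2 in the CMP libraries.

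Spleen Ter cells were first compared with Ter cells of the embryonic liver, where red cells of the fetus normally form. Of the 39 genes 28 fell in spleen Ter and 0 rose. Calls need an adjusted p under 0.05 (limma, Benjamini-Hochberg) together with a change of 2-fold or more on the log2(FPKM + 1) scale. Of all tested genes 11.7% fell and 43.0% rose by that rule. The median log2 fold change was -2.14 over the 39 genes and 0.79 over all tested genes. Licensing genes fell in 9 of 10 cases, polymerase and primase genes in 5 of 6, nucleotide supply genes in 4 of 5, and both cyclin E and both chromatin assembly genes fell. Helicase activation genes fell in 3 of 6 cases and the clamp, loader and lagging strand genes in 3 of 8. Rrm2 had the largest fall of the 39, with a log2 fold change of -4.44 ± 0.54 (SE, adjusted p = 0.00043). The SE of each gene pools the spread of all 4 groups. Within the spleen Ter pair 22.1% of tested genes differed by at least 2-fold, against 0.578% to 1.87% in the other pairs. Rrm2 and Prim1 had spleen Ter libraries far apart. For such genes the SE may be too small in comparisons with spleen Ter and too large in the others. Cdc6 changed by -3.45 ± 0.46 (adjusted p = 0.00061), Prim1 by -3.01 ± 0.63 (adjusted p = 0.00488) and Lig1 by -3.04 ± 0.29 (adjusted p = 0.00015). Mcm5 changed by -2.50 ± 0.21 (adjusted p = 8.83e-05) and Pcna by -1.76 ± 0.14 (adjusted p = 7e-05). Chaf1a changed by -3.32 ± 0.16 (adjusted p = 1.01e-05), Gins1 by -2.49 ± 0.26 (adjusted p = 0.000205), Ccne2 by -3.28 ± 0.32 (adjusted p = 0.000168) and Ccne1 by -2.64 ± 0.36 (adjusted p = 0.000679). The 11 genes that did not pass were Cdt1, Gins2, Gins3, Gins4, Pold1, Rfc2, Rfc3, Rfc4, Rfc5, Rpa2 and Dut. Dut stood at -0.06 ± 0.27 (adjusted p = 0.857), Rfc3 at -0.10 ± 0.16 (adjusted p = 0.616) and Cdt1 at -0.46 ± 0.17 (adjusted p = 0.0424), where only the fold missed the threshold. With median-of-ratios scaling 38 genes were called, with 0 higher. Globin genes held 47.6% of FPKM in liver Ter and 13.7% in spleen Ter, and the median over the 39 genes was -2.27 with totals that leave them out.

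**Figure D2:**
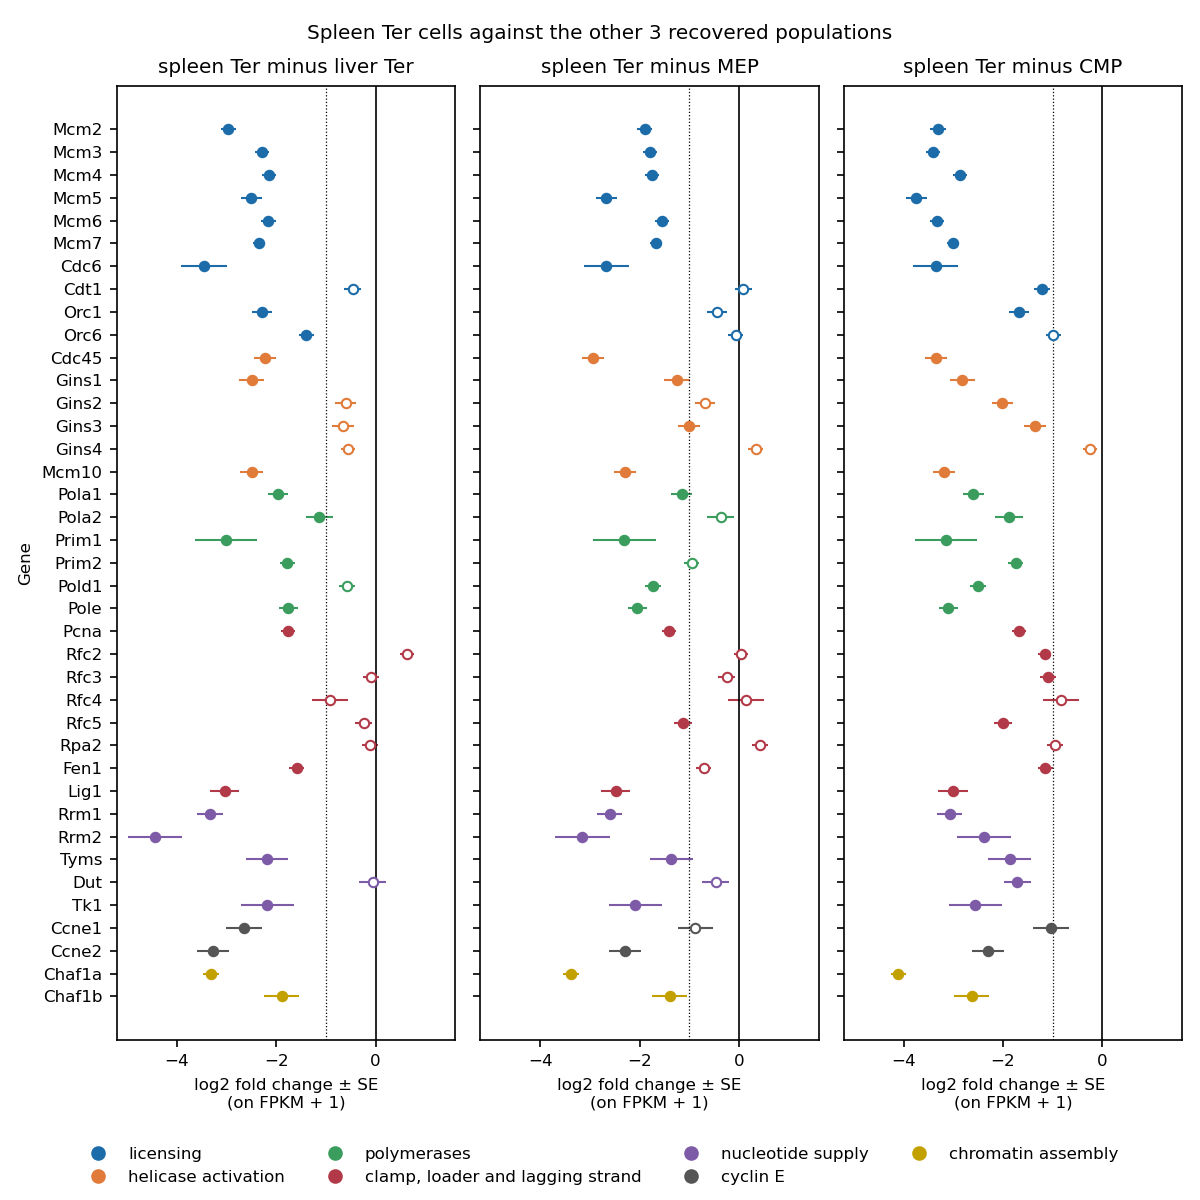
Log2 fold change of each replication gene in spleen Ter cells against liver Ter, MEP and CMP (limma on log2(FPKM + 1), 2 libraries a group). Points are estimates with bars of 1 SE, coloured by role, filled where called and open where not, and the dotted line marks a log2 fold change of -1. Against liver Ter the licensing genes are filled except Cdt1, while Rfc2, Rfc3, Rfc4 and Rfc5 of the clamp loader are open, between -1 and 1.

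Against the libraries labelled MEP, 25 of the 39 genes fell in spleen Ter and 0 rose, where 19.5% of all tested genes fell and 23.3% rose. The median log2 fold change was -1.39 over the 39 genes and 0.09 over all tested genes. Licensing genes fell in 7 of 10 cases, helicase activation and polymerase genes each in 4 of 6, nucleotide supply genes in 4 of 5, and the clamp, loader and lagging strand genes in 3 of 8. Chaf1a changed by -3.38 ± 0.16 (adjusted p = 2.42e-05), Rrm2 by -3.15 ± 0.54 (adjusted p = 0.00273), Cdc45 by -2.94 ± 0.22 (adjusted p = 0.000107) and Mcm5 by -2.67 ± 0.21 (adjusted p = 0.000125). The clamp gene Pcna changed by -1.40 ± 0.14 (adjusted p = 0.000283), and Lig1 by -2.48 ± 0.29 (adjusted p = 0.000526). The origin subunit Orc6 stood at -0.07 ± 0.14 (adjusted p = 0.698), the loader subunit Rfc2 at 0.04 ± 0.13 (adjusted p = 0.818) and Gins4 at 0.33 ± 0.15 (adjusted p = 0.0893). Ccne1 was at -0.88 ± 0.36 (adjusted p = 0.0734). Without MEP library B 19 genes were called. Without spleen Ter library B the calls of Chaf1b, Gins1, Pola1, Rfc5 and Tyms were lost, since their changes were then -0.98 to -0.63.

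Against CMP, 35 of the 39 genes fell in spleen Ter and 0 rose, where 28.3% of all tested genes fell and 14.0% rose. The median log2 fold change was -2.37 over the 39 genes and -0.41 over all tested genes. All 6 polymerase and primase genes and all 5 nucleotide supply genes fell, and so did 9 of 10 licensing genes, 5 of 6 helicase activation genes and 6 of 8 of the clamp, loader and lagging strand group. Chaf1a had the largest fall, at -4.10 ± 0.16 (adjusted p = 1.5e-05), and Mcm5 followed at -3.75 ± 0.21 (adjusted p = 4.14e-05). Cdc45 changed by -3.35 ± 0.22 (adjusted p = 6.77e-05), Rrm1 by -3.07 ± 0.25 (adjusted p = 0.00014), Rrm2 by -2.37 ± 0.54 (adjusted p = 0.00919) and Pcna by -1.69 ± 0.14 (adjusted p = 0.000149). With median-of-ratios scaling 26 genes were called, and Rrm2 (adjusted p = 0.0726), Tyms (adjusted p = 0.0873) and Dut (adjusted p = 0.0614) of the nucleotide supply genes were not. The 4 genes that did not pass on FPKM as deposited were Orc6 at -0.99 ± 0.14 (adjusted p = 0.00133), just short of the fold, Rfc4 at -0.84 ± 0.37 (adjusted p = 0.0893), Gins4 at -0.25 ± 0.15 (adjusted p = 0.183) and Rpa2. Ccne1 passed at -1.03 ± 0.36 (adjusted p = 0.0443), and its call was lost when any library but spleen Ter A was left out, with -0.44 without spleen Ter library B. The 3 comparisons share the spleen Ter libraries, so they are not independent of each other.

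Within spleen Ter, the libraries stood apart in a subset of the genes. On the log2(FPKM + 1) scale 8 of the 39 genes were at least 2-fold higher in library A, namely Cdc6, Prim1, Rfc4, Rrm2, Tyms, Tk1, Ccne1 and Chaf1b, and 0 in library B. Of all tested genes 4.10% were at least 2-fold higher in library A and 18.0% in library B. The median difference of A minus B was 0.35 over the 39 genes and -0.40 over all tested genes. Rrm2 was 4.25 times, Tk1 5.83 times and Tyms 4.06 times as high in library A as in library B. The ratio of A to B was nearer to 1 for helicase subunits, at 0.876 for Mcm2, 1.05 for Mcm6, 1.05 for Mcm7 and 1.65 for Mcm5. Klf1 stood at 17.5 FPKM in A and 0.584 FPKM in B, and the macrophage gene C1qb at 54.6 and 414 FPKM. The part of either in the difference was not tested.

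The 39 genes summed to 1321 and 1327 FPKM in the liver Ter libraries and to 1585 and 1514 in CMP. On FPKM as deposited, 2 genes rose in liver Ter, Rrm2 and Ccne1, and 10 fell, where 6.97% of all tested genes rose and 53.2% fell. Rrm2 changed by 2.06 ± 0.54 (adjusted p = 0.0121) and Ccne1 by 1.61 ± 0.36 (adjusted p = 0.00573). The genes that fell were the helicase subunits Mcm3, Mcm5 and Mcm6, Cdc45, Gins2, Pold1, Pole, Rfc2, Rfc5 and Dut. Pold1 changed by -1.93 ± 0.16 (adjusted p = 8.21e-05), Rfc2 by -1.80 ± 0.13 (adjusted p = 5.52e-05), Gins2 by -1.41 ± 0.21 (adjusted p = 0.000915) and Mcm5 by -1.25 ± 0.21 (adjusted p = 0.00174). Pcna was at 0.07 ± 0.14 (adjusted p = 0.677), Lig1 at 0.03 ± 0.29 (adjusted p = 0.938) and Cdc6 at 0.10 ± 0.46 (adjusted p = 0.869).

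The direction of this comparison turns with the scaling. The median log2 fold change was -0.65 over the 39 genes and -1.12 over all tested genes on FPKM as deposited. With median-of-ratios scaling, which sets the median gene near no change, 22 of the 39 rose in liver Ter and 0 fell, with a median of 1.12 (22.0% of all genes rose), and Mcm5 stood at 0.60. With quantile normalization 8 rose and 1 fell, with a median of 0.42 (17.1% of all genes rose). The call of Rrm2 was lost with CMP library A left out, at 2.05 (adjusted p = 0.055), and with library B left out, at 2.07 (adjusted p = 0.0527).

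**Figure D3:**
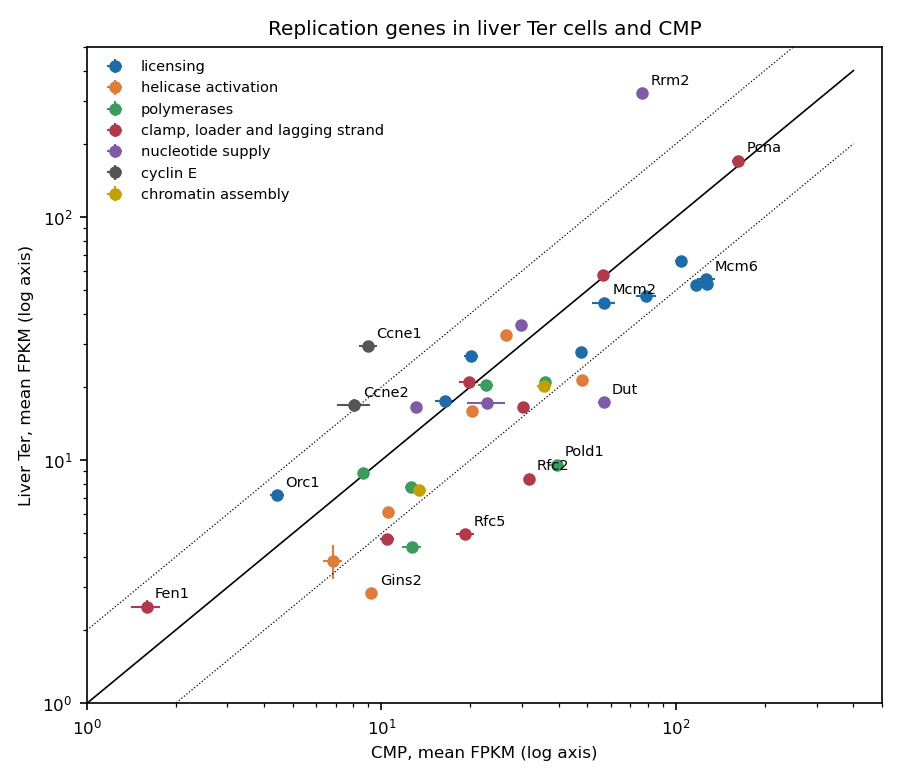
Mean FPKM of each replication gene in liver Ter (vertical log axis) against CMP (horizontal log axis), coloured by role, with bars from the lower to the higher of the 2 libraries; the solid line marks equal levels and the dotted lines 2-fold differences. Rrm2, Ccne1 and Ccne2 lie above the upper dotted line, Pcna lies near the solid line, and Pold1, Rfc2, Rfc5, Gins2 and Dut lie below the lower line.

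Against the libraries labelled MEP, 6 of the 39 genes rose in liver Ter and 1 fell, where 8.75% of all tested genes rose and 33.3% fell. The genes that rose were Mcm2, Orc1, Orc6, Gins1, Rfc4 and Ccne1. Orc1 changed by 1.84 ± 0.20 (adjusted p = 0.000314), Ccne1 by 1.76 ± 0.36 (adjusted p = 0.00552) and Gins1 by 1.24 ± 0.26 (adjusted p = 0.00618). Pold1 was the gene that fell, at -1.17 ± 0.16 (adjusted p = 0.000985). Rrm2 was at 1.29 ± 0.54 (adjusted p = 0.085), a spread that pools the spleen Ter libraries: without spleen Ter library A its adjusted p was 1.6e-05. Mcm5 was at -0.17 ± 0.21 (adjusted p = 0.539) and Pcna at 0.36 ± 0.14 (adjusted p = 0.0704). The median was 0.56 over the 39 genes and -0.54 over all tested genes. With median-of-ratios scaling 27 genes rose and 0 fell (22.4% of all genes rose), and with quantile normalization 16 rose and 0 fell (19.0%), so that Pold1 no longer passed.

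The libraries labelled MEP and CMP, also used in the comparisons above, were set against each other. Of the 39 genes 17 were lower in MEP and 0 higher, where 24.6% of all tested genes fell and 7.32% rose. Licensing genes made up 8 of the 17. Mcm6 changed by -1.78 ± 0.14 (adjusted p = 0.000279), Mcm5 by -1.08 ± 0.21 (adjusted p = 0.00658), Gins1 by -1.56 ± 0.26 (adjusted p = 0.00326) and Pola2 by -1.51 ± 0.27 (adjusted p = 0.00464). Rpa2 changed by -1.38 ± 0.16 (adjusted p = 0.000858). Rrm2, Pcna and Ccne1 did not pass, at 0.77 ± 0.54 (adjusted p = 0.29), -0.29 ± 0.14 (adjusted p = 0.144) and -0.15 ± 0.36 (adjusted p = 0.771). The SE of Rrm2 pools its spleen Ter libraries, which lay far apart. The median was -0.89 over the 39 genes and -0.41 over all tested genes. Only 1 gene, Mcm6, was called with median-of-ratios scaling and 8 with quantile normalization.

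**Figure D4:**
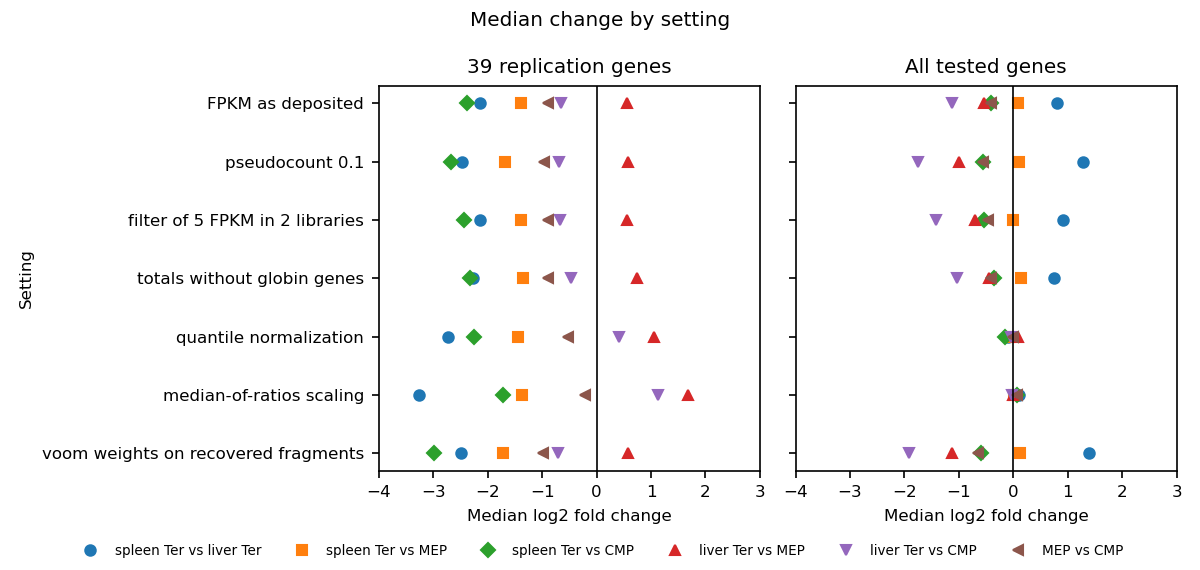
Median log2 fold change of the 39 replication genes (left) and of all tested genes (right) for the 6 comparisons, under FPKM as deposited and 6 other settings. The 3 comparisons of spleen Ter stay below 0 on the left under each setting shown, while liver Ter against CMP moves from -0.65 to 1.12.

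The control, HSC and CLP can be described only by the authors' means. The median of the 39 genes was 4.33 FPKM for the control cells against 18.5 and 25.0 for the HSC and CLP columns. Against the control, 33 of the 39 genes were at least 2-fold higher in HSC and 36 in CLP, with 0 lower in either. Both comparisons share the control mean. Among all genes 16.2% and 17.0% were higher and 10.5% and 11.1% lower. In the order control, HSC, CLP, Rrm2 stood at 4.09, 90.9 and 99.6 FPKM, Mcm5 at 20.3, 88.0 and 114, and Cdc6 at 0.330, 9.29 and 10.2. Levels in the 3 means were highest in CLP for 33 genes and in HSC for 6, and lowest in the control for 38, with Cdt1 the exception. HSC and CLP were close: 1 gene, Fen1, was at least 2-fold lower in HSC and 0 higher, where 2.45% of all genes were lower and 3.09% higher, and the median log2 difference over the 39 was -0.35. Both columns held the lymphoid gene Dntt, at 416 FPKM in HSC and 773 in CLP, and Mecom, a stem cell gene, stood at 0.973 FPKM in HSC. The 6 stem cell markers, Mecom among them, summed to 76.9 FPKM in HSC and 27.5 in CLP. Their sum was higher than that of HSC for spleen Ter (202) and the control (105), so it does not single out the HSC column. It was lower for CMP (27.7), MEP (9.12) and liver Ter (0.932). Neutrophil markers summed to 11949 FPKM in HSC and 15637 in CLP, and macrophage markers to 241 and 257. The part of this in the levels was not tested.

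Spleen Ter cells stood near the CD45+ spleen control. Of the 36 genes with at least 1 FPKM in either mean, 3 were higher by 2-fold or more in spleen Ter (Orc6, Rrm2 and Tyms) and 5 lower (Mcm2, Mcm4, Mcm5, Pold1 and Fen1). Without Fen1, whose level is uncertain, 4 were lower. Of all genes 13.5% were higher and 28.4% lower. The median log2 difference was -0.25 over these genes and -0.32 over all. For Rrm2 the means were 17.5 FPKM (spleen Ter) and 4.09 FPKM (control), and for Mcm4 they were 10.02 and 27.9 FPKM. Cdc6, Orc1 and Mcm10 were under 1 FPKM in both. The columns differ in number format, so no test was made. The balance depends on the library: with spleen Ter library A alone 8 genes were higher and 5 lower, and with library B alone 1 was higher and 9 lower. It also turned with median-of-ratios scaling, where 8 were higher and 3 lower. B cell markers summed to 1837 FPKM for the control (spleen Ter: 1131), and T cell markers to 298 (spleen Ter: 196). Neutrophil and macrophage markers were far apart, at 826 and 23.7 for the control against 24628 and 541 for spleen Ter. The part of lymphocyte RNA, present in both columns, in the nearness of the replication genes was not tested.

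A list of 38 other replication genes and one of 17 genes of the E2F pathway were fitted in the same way. Against liver Ter, 22 of the 38 fell in spleen Ter and 3 rose, and the median log2 change was -1.28 (all tested genes: 11.7% fell, 43.0% rose, median 0.79). Against MEP, 18 fell and 3 rose, with a median of -0.997 (all tested genes: 19.5%, 23.3% and 0.09). Against CMP, 28 fell and 2 rose, with a median of -1.69 (all tested genes: 28.3%, 14.0% and -0.41). Uhrf1, which guides DNA methylation at the fork, was 4.10 and 3.57 FPKM in spleen Ter, 72.9 and 69.4 in liver Ter, against 43.1 and 49.8 in the MEP and 89.3 and 75.0 in the CMP libraries. The small subunits Pold4 and Pole4 rose in spleen Ter in all 3 comparisons. Pold4 was 69.6 and 93.6 FPKM in spleen Ter against 1.04 and 1.504 in liver Ter, and Pole4 was 37.6 and 36.2 against 8.76 and 10.3. The call of Pole4 against liver Ter was lost with median-of-ratios scaling, at 0.69, and with quantile normalization, at 0.99. The authors' mean of Pold4 in the control was 109.7 FPKM.

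Of the 16 tested genes of the E2F pathway 10 fell in spleen Ter in each of the 3 comparisons, with 0, 1 and 0 higher against liver Ter, MEP and CMP. The shares of all tested genes that fell were 11.7%, 19.5% and 28.3%. E2f8, a repressive family member, was 0.936 and 0.0505 FPKM in spleen Ter, 37.3 and 36.3 in liver Ter, against 33.4 and 33.2 in the MEP and 25.8 and 28.4 in the CMP libraries. The S phase cyclin Ccna2 was 6.39 and 1.48 in spleen Ter, 123 in both liver Ter libraries, 32.8 and 41.0 in MEP, and 24.7 and 26.2 in CMP. Between liver Ter and CMP 5 of the 16 rose in liver Ter and 4 fell, where 6.97% of all tested genes rose and 53.2% fell. Here too the scaling turns the balance: 9 rose and 0 fell with median-of-ratios scaling, and 8 rose and 0 fell with quantile normalization. E2f2, an activator of the family, was 195 and 179 FPKM in liver Ter and 12.4 and 10.3 in CMP, and the E2F partner Tfdp2 was 52.6 and 54.6 against 2.95 and 3.09. Both rose, under these scalings too, with log2 fold changes of 3.93 ± 0.51 (adjusted p = 0.00051) and 3.76 ± 0.51 (adjusted p = 0.000615) on FPKM as deposited.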

How the data were processed

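RNA was sequenced from 14 samples in 7 groups of 2. The library kit was TruSeq RNA from 1 µg of total RNA per the labels' protocols, and the genome build was mm10 per the submitters' processing notes. The aligner, the counter, the annotation and the strand setting were not given in the sources used here. Values deposited by the authors are group means in FPKM. Of its 49588 lines, 2 without a gene name and 3 repeats were left out, and 49324 of the remaining 49583 genes matched GENCODE M21 (GRCm38).

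In the spleen Ter, liver Ter, MEP and CMP columns each value is the mean of 2 whole fragment counts divided by gene length and depth. Both libraries could be recovered for 13857 of the 14049 genes with at least 1 FPKM (98.6%), with a largest relative departure from the deposited mean of 3.1e-07. Gene length came from the annotation for 11308 genes and from the steps for 2549, 5 of the 39 among them (Cdc45, Rfc4, Pola2, Chaf1a and Chaf1b). The recovery was tested on simulated data. It was chosen after the data were seen. Which recovered library belongs to which sample is unknown, and recovered depth was 13413531 to 28537889 fragments. Counting limits cover counting error only.

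limma 3.58.1 (R 4.3.3, with a mean-variance trend) was fitted to log2(FPKM + 1) of the 8 libraries over 12974 genes with at least 1 FPKM in 2 libraries, with 4 residual and 2.6 prior degrees of freedom, for 6 comparisons. Fold changes on this scale understate the change of low genes. The p-values were adjusted over all tested genes by the Benjamini-Hochberg method. The control, HSC and CLP means were compared by a 2-fold threshold with no test. Full statistics are given for Mcm5, Pcna, Rrm2 and Ccne1 and for the members with the largest and smallest change of each role. Other genes with statistics were among the largest changes of their list. The 39 genes and the lists were chosen with earlier results of these data known. The alternatives were a pseudocount of 0.1, a filter of 5 FPKM or none, median-of-ratios scaling, quantile normalization, totals without globin genes, no trend, each library left out in turn and voom on the recovered fragments. The scalings were applied to the other gene lists after seeing the data.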

Additional observations from a re-analysis of the deposited data

How the results depend on the processing

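No paired analysis was possible because the recovered libraries carry no replicate number. Of 3738 values of single genes under alternatives, 3507 kept their side of the threshold, 114 no longer passed and 110 newly passed. In the remaining 7 a gene that had passed changed sign, which is called a reversal here. Sign changes of genes that had not passed are left out of the 7. The 110 that newly passed include some with the opposite sign. Chaf1a in liver Ter against CMP went from -0.79 on FPKM as deposited to 1.02 with median-of-ratios scaling. For liver Ter against CMP 14 genes were positive and 25 negative on FPKM as deposited, against 36 and 3 with median-of-ratios scaling. The reversals were all in liver Ter against CMP with median-of-ratios scaling, at 0.69 for Cdc45, 0.16 for Dut, 0.14 for Gins2, 0.72 for Mcm3, 0.60 for Mcm5, 0.68 for Mcm6 and 0.31 for Pole, and the scaling moves the median of all genes to near 0. In that comparison 22 members passed with a median of 1.12, and with quantile normalization 9 passed with a median of 0.42. For liver Ter against MEP these settings gave 27 calls with a median of 1.67 and 16 with 1.05. The median was 0.74 with totals that leave out globin genes, and 11 were called by voom on recovered fragments, an alternative chosen after seeing the data. For MEP against CMP they gave 1 call with a median of -0.22 and 8 with -0.53. For spleen Ter against liver Ter the medians were -3.26 and -2.73. Against CMP the median was -1.72, with 26 calls, under median-of-ratios scaling and -2.98 by voom. The share of higher calls among all tested genes moved from 78.5% to 52.8% and 47.7% (median-of-ratios, quantile) for spleen Ter against liver Ter, and from 33.0% to 58.5% and 44.1% against CMP. It moved from 20.8% to 49.3% and 48.9% for liver Ter against MEP, from 11.6% to 51.9% and 47.1% against CMP, and from 950 higher with 3188 lower calls to 60.7% and 49.3% for MEP against CMP.

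With each library left out in turn, spleen Ter against liver Ter gave 28 calls each time, with medians from -2.16 to -1.79. Without spleen Ter library A, Pola2 (-0.69) left the calls and Rfc4 (-1.51) joined them. Against MEP there were 19 to 25 calls, with medians from -1.63 to -1.01, and against CMP 34 to 36, from -2.74 to -1.83. Liver Ter against MEP gave 5 to 8 calls, with medians from 0.56 to 0.60, and against CMP 11 to 13, from -0.67 to -0.61. MEP against CMP gave 14 to 17, from -0.94 to -0.84. The lowest values against MEP and CMP in size, -1.01 and -1.83, came without spleen Ter library B. A group left with 1 library is assumed to vary like the others. Spleen Ter against the control gave 13 genes past 2-fold with a pseudocount of 0.1, 11 each under the median-of-ratios and quantile settings, and 10 to 13 with 1 spleen Ter library. Where not stated, the cause was not tested.

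Among members named with statistics, the call of Rfc4 in liver Ter against MEP was lost when any liver Ter, MEP or CMP library was left out, and that of Prim1 in spleen Ter against MEP when either MEP library was. In MEP against CMP, Mcm5 missed the threshold without MEP library A (adjusted p = 0.0501, limma). Counts in single libraries limit the low genes: Cdc6, Prim1, Mcm10 and Fen1 had 0, 13, 4 and 7 fragments in spleen Ter library B.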
